A study of Mus musculus with 16 samples.

Results

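Interferon-stimulated genes are the genes that a cell switches on when it senses an interferon, a secreted protein that signals viral infection. Binding of a type I interferon to its receptor activates the kinases Jak1 and Tyk2, and a complex that holds Stat2 and Irf9 then enters the nucleus and binds a short promoter sequence, the interferon-stimulated response element. The proteins made from the genes it activates detect viral RNA, block translation or viral assembly, or return on the pathway itself, and pluripotent cells are known for a weaker interferon response than that of differentiated cells. The list described here holds 43 such genes, fixed by name, and its members were found in the expression table by symbol or older alias. Of the 43, 39 had a row among the 32089 genes of the table, 36 under their symbol and 3 under an older alias only (Irf9 as ISGF3G, Dhx58 as D11LGP2E and Rtp4 as 5830458K16RIK). Isg15, Oas1a, Xaf1 and Ifi204 were not analysed here.

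The study profiled mouse cells on 16 Illumina MouseWG-6 arrays, 2 biological replicates in each of 8 groups, to set pluripotent lines made with Esrrb beside embryonic stem (ES) cells and mouse embryonic fibroblasts (MEFs). The ES cells were of the R1 line. The 5 induced pluripotent stem (iPS) lines were OSE T8, OSE T9, OSCE 8, OSCE 13 and OSCK (number signs left out); in common use the letters stand for Oct4, Sox2, c-Myc, Klf4 and Esrrb, which the labels do not spell out. The 2 MEF types carried a green fluorescent protein (GFP) transgene driven by an Actin or by a Pou5f1 promoter. ES cells and iPS lines grew on MEF feeders treated with mitomycin C, with the cytokine LIF. All 8 groups, MEFs included, had 15% serum. The labels give no interferon treatment or infection for any group. Each iPS line stands for 1 line, and ES cells for 1 line, so that no comparison with ES cells samples a second ES line. By the array names, ES cells, OSCK, OSCE 8 and both MEF types shared 2 slides, while OSCE 13, OSE T8 and OSE T9 lay on 2 others.

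The labels held up against marker genes. All 12 measured pluripotency markers were above background on both arrays of ES cells and of each iPS line, with a summed linear signal of 31976 to 32567 in ES cells and 15949 to 16269 in OSCE 8, the lowest line; in MEFs the sum was 276 to 302. Against ES cells 8 of the 12 were lower in OSCE 8 and 0 higher, in OSCK 0 were lower and 1 higher, and in the other lines 2 to 6 were lower and 0 to 2 higher. Esrrb itself differed by 0.58 ± 0.11 in OSCK, -0.51 ± 0.11 in OSCE 13 and -1.98 ± 0.11 in OSCE 8 on the log2 scale, all called. It was also called lower in OSE T9, and was not called in OSE T8. Fibroblast markers (15 measured) summed to 60885 to 65675 in MEFs, 22626 to 25496 in ES cells and 22529 to 32531 in the lines. Between 35.5% and 38.8% of probes were above background on an array, and replicates correlated at 0.989 (OSE T9) to 0.995 over genes. The 39 members had 67 probes, of which 14 were above background on no array, and 16 members had more than 1. A gene is given by its brightest probe, on a log2 scale after background correction and quantile normalization, and was tested where that probe was above background (detection p under 0.01) on at least 2 of the 16 arrays. That left 15642 genes and 33 members. The 6 that did not pass were Ifit1, Oas3, Mx1, Gbp4, Ifih1 and Rtp4; 5 of these were above background on no array with any probe, and Ifih1, which encodes the RNA sensor MDA5, rose above it on 1 ES array only. Oas1b and Oas2 passed through the ES arrays alone, so they could only be called lower elsewhere, and 28 of the 33 were above background on at least 2 arrays outside ES cells.

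Promoter sequences are given first, because the list is defined by a pathway that acts through a known element. RefSeq promoter windows of 300 bases (250 before to 50 after the annotated start, build GRCm38.p6) were at hand for 31 of the 43 members. The response element was searched on both strands as a repeat of its 4-base half-site with any 2 bases between the copies, the letters that the capitals below show. It occurred in 17 of these 31 genes (54.8%) and in 3.99% of the 27025 genes with a window. The 4 genes shown first are among the most changed members that held a match, and Irf7 is shown as one that held none; capitals mark the match, or 2 overlapping matches.
Ifit3, chr19:34583279-34583578, plus strand: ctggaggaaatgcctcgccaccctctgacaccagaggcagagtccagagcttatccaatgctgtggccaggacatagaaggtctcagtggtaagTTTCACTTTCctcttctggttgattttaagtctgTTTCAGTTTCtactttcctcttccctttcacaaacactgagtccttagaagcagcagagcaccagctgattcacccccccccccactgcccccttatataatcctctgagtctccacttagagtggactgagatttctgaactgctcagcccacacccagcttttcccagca
Oas1g, chr5:120887564-120887863, minus strand: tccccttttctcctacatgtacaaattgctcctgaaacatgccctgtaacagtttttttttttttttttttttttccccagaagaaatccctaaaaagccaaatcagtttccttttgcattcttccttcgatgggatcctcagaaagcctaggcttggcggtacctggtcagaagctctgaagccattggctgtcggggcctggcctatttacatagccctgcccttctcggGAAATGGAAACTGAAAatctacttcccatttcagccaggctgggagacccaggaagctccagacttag
Gbp3, chr3:142559794-142560093, plus strand: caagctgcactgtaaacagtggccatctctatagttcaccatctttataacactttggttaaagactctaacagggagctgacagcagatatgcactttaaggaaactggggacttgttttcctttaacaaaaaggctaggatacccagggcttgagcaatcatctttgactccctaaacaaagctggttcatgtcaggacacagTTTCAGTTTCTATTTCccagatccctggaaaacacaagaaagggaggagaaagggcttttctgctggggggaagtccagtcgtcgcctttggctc
Rsad2, chr12:26456403-26456702, minus strand: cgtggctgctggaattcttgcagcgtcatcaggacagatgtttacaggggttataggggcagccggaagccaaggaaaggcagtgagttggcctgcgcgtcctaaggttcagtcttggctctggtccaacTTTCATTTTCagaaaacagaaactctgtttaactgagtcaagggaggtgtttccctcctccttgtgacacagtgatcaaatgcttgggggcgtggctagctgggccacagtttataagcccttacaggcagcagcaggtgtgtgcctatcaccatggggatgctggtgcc
Irf7, chr7:141266375-141266674, minus strand: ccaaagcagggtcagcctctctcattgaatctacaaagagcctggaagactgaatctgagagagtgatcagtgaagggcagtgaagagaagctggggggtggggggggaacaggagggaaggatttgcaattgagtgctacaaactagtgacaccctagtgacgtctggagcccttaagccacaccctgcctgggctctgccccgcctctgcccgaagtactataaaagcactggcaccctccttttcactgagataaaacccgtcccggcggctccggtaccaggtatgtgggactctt
Matches began 156 and 122 bases before the annotated start in Ifit3, 18 and 12 before it in Oas1g, 45 and 39 before it in Gbp3, and 120 before it in Rsad2. The gamma-activated site, searched as TTCNNNGAA, which reads the same on both strands, occurred in 10 of the 31 members (32.3%) and in 9.55% of all genes with a window. A match is a run of letters and not a measured binding site.

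ES cells held the highest level of nearly every interferon-stimulated gene measured, and most of the genes were lower in the iPS lines than in MEFs as well. ES cells had the highest of the 8 group means for 30 of the 33 tested members, against 11.2% of all genes tested; Ifitm3, Iigp1 and Irf1 were the others. Both ES arrays lay above all 10 iPS arrays for 29 of the 33, against 7.35% of all genes. The 30 and the 29 take in Oas1b and Oas2, which passed the filter through the ES arrays alone. Of the 39 members with a row, 32 were above background on both ES arrays, 20 to 22 in each iPS line, 27 in Actin-GFP MEFs and 24 in Pou5f1-GFP MEFs.

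**Figure D1:**
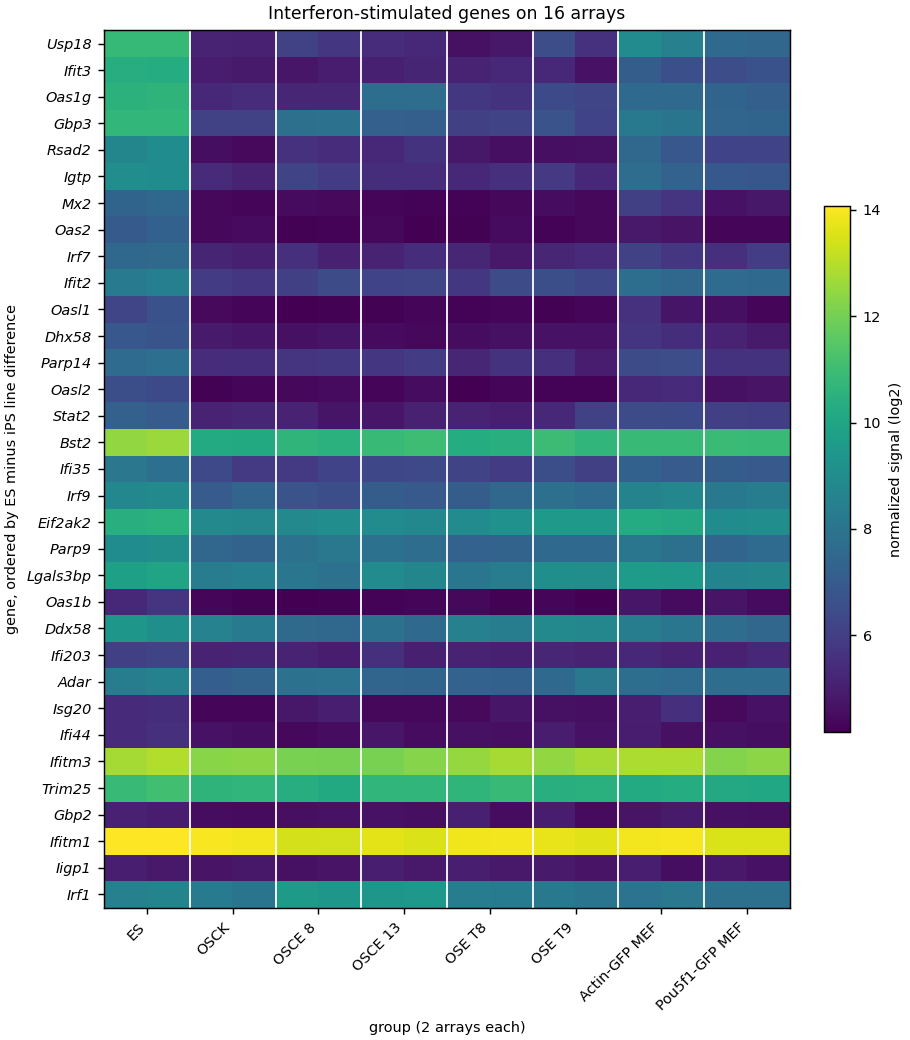
Normalized log2 signal of the 33 tested genes (vertical axis, ordered by the mean difference between ES cells and the 5 iPS lines) on the 16 arrays (horizontal axis, 2 per group). ES cells are brightest for most genes, and Irf1 at the bottom is brightest in OSCE 8 and OSCE 13.

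Each line and each MEF type was compared with ES cells, to ask how far the interferon-stimulated programme of the reprogrammed cells resembled that of either. A limma fit over all tested genes, with p adjusted over them by Benjamini-Hochberg and a call at an adjusted p under 0.05, gave the counts that follow; the comparisons share the 2 ES arrays. In OSCK 30 of the 33 members were lower and 0 higher, where 8.82% of all genes were lower and 8.13% higher. In OSCE 8 the counts were 30 lower and 1 higher (12.6% and 11.6% of all genes), and in OSCE 13 they were 29 and 1 (9.67% and 9.76%). OSE T8 had 27 lower and 0 higher (10.3% and 10.4%), and OSE T9 had 29 and 0 (9.66% and 10.7%). Irf1 was the member that was higher in both OSCE lines.

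Over the 33 members the median log2 difference from ES cells was -1.46 in OSE T9, -1.89 in OSE T8, -1.61 in OSCE 13, -1.95 in OSCE 8 and -1.84 in OSCK, while that of all genes lay between -0.01 and 0.01. The mean of the 5 lines against ES cells gave 30 lower and 0 higher members (11.2% and 10.8% of all genes), with a median of -1.78. Its p-values measure the spread between arrays. By the spread between lines, given below, Adar, Ddx58, Eif2ak2, Ifi44, Ifitm1, Ifitm3, Irf9, Isg20, Lgals3bp, Oas1g, Parp9 and Trim25 were not called. Where a count is 0, the unadjusted limma p under 0.05 also gave 0 higher members in OSCK, OSE T8, OSE T9 and the mean of the lines. Among the 28 members above background on at least 2 arrays outside ES cells, 24 to 27 were lower in each line. With no filter on dim probes, 30 to 32 of the 39 members with a row were lower in each line (of all 32089 genes 4.47% in OSE T9, 4.71% in OSE T8, 4.62% in OSCE 13, 5.9% in OSCE 8 and 4.2% in OSCK). That count takes in Ifih1 and Mx1, which were above background on 1 and 0 arrays. The 5 lines were also taken as replicates in place of their arrays, which tests the spread between lines against a single ES mean. By that fit 18 of the 33 were lower and 0 higher (0.505% and 0.205% of all genes). Oas1b and Oas2, which could only be called lower, are among the 18.

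**Figure D2:**
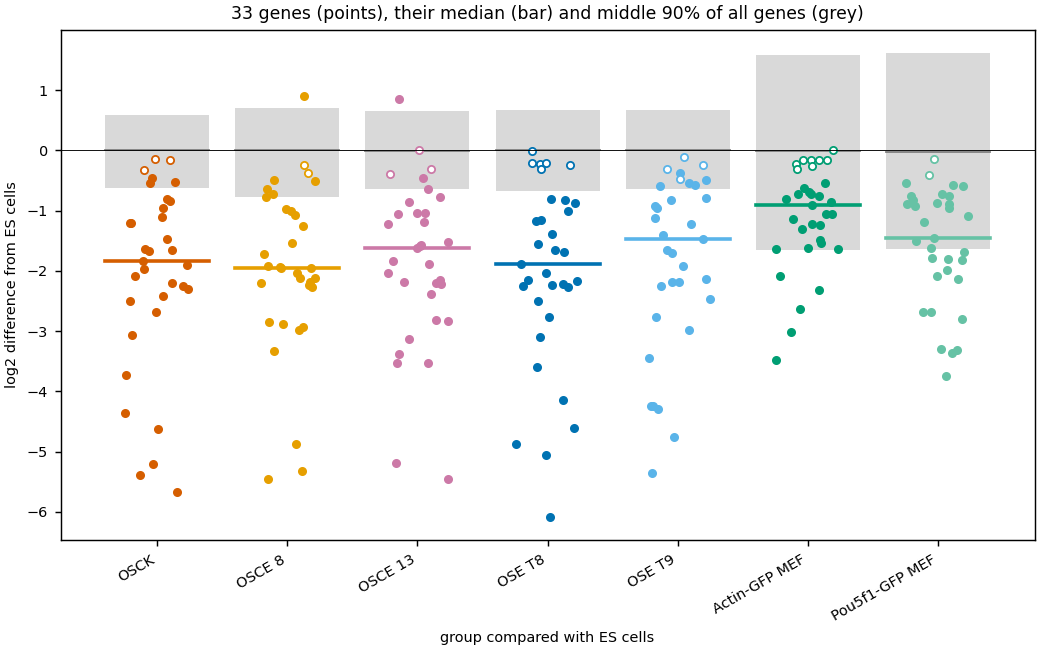
Log2 difference from ES cells (vertical axis) of the 33 genes in each of 7 comparisons (horizontal axis). Points are genes, filled where called at an adjusted p under 0.05, coloured bars are the medians of the 33, and grey boxes span the middle 90% of all genes tested; the medians lie at -1.46 to -1.95 in the iPS lines.

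ES cells and 4 of the other groups shared slides, and within each slide the members' median was -1.78 and -1.75 for OSCK, and -1.94 and -1.97 for OSCE 8. For OSCE 13, OSE T8 and OSE T9, slide and line cannot be told apart against ES cells or MEFs. Markers of other cells gave these values beside the difference: 6 of 15 fibroblast markers were higher and 0 lower in the 5 lines than in ES cells, and of 11 macrophage markers 2 were higher (C1qc and Lyz2) and 1 lower (Cd68). Macrophage markers summed to 838 to 865 in ES cells and to 506 to 2060 in the lines, and 6 of the 11, among them Csf1r, C1qa and Tyrobp, were not above background on either ES array. In RNA of whole cultures, fewer cells of a type and less RNA per cell cannot be told apart.

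Of the RNA sensors, Dhx58, which encodes the RIG-I-like receptor LGP2, was measured at 6.88 and 6.73 in ES cells, 5.70 and 5.47 in Actin-GFP MEFs and 5.14 and 4.91 in Pou5f1-GFP MEFs. Among the lines Dhx58 read 4.67 and 4.68 in OSE T9, 4.50 and 4.64 in OSE T8, 4.47 and 4.38 in OSCE 13, 4.62 and 4.75 in OSCE 8 and 4.89 and 4.80 in OSCK. Both ES arrays lay above all others, the MEF arrays came next, and no iPS array was above background. Dhx58 was at least 3.56-fold lower in the mean of the lines than in ES cells (limma adjusted p = 3.91e-10), a bound that sets the ES level against the higher of the gene's own signal and the lowest detected signal of each dim array. Ddx58, which encodes RIG-I, the sensor of viral RNA with a free end, read 9.43 and 9.12 in ES cells, 8.35 and 8.07 in Actin-GFP MEFs and 7.74 and 7.44 in Pou5f1-GFP MEFs. Among the lines Ddx58 read 8.83 and 8.77 in OSE T9, 8.48 and 8.32 in OSE T8, 7.92 and 7.58 in OSCE 13, 7.61 and 7.51 in OSCE 8 and 8.58 and 8.28 in OSCK. Its ES arrays also lay above the rest, by less: the change was -1.71 ± 0.16 (log2 ± SE) in OSCE 8, -1.52 ± 0.16 in OSCE 13, and -0.47 ± 0.16 in OSE T9, where it was not called (adjusted p = 0.0532).

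Among the transcription factors, Irf9 and Stat2, parts of the interferon-activated complex, were both lower in each line. Irf9 stood at 8.80 and 8.91 in ES cells, 8.62 and 8.76 in Actin-GFP MEFs and 8.18 and 8.37 in Pou5f1-GFP MEFs. Among the lines Irf9 read 7.82 and 7.66 in OSE T9, 7.10 and 7.52 in OSE T8, 7.11 and 6.93 in OSCE 13, 6.73 and 6.57 in OSCE 8 and 7.03 and 7.39 in OSCK. The line arrays lay below the MEF arrays, and the ES arrays above both. By the second Irf9 probe the first Actin-GFP MEF array, at 7.97, lay above both ES arrays (7.84 and 7.68). The Irf9 change in the mean of the lines, by the brightest probe, was -1.67 ± 0.12 (limma adjusted p = 1.23e-07). With lines as replicates the standard error was 0.35 and Irf9 was not called. Actin-GFP MEFs differed from ES cells by -0.16 ± 0.16 (limma adjusted p = 0.414).
Stat2 gave 7.22 and 7.01 in ES cells, 6.48 and 6.39 in Actin-GFP MEFs and 6.05 and 6.01 in Pou5f1-GFP MEFs. Among the lines Stat2 read 5.31 and 6.10 in OSE T9, 5.15 and 5.01 in OSE T8, 4.77 and 5.09 in OSCE 13, 5.11 and 4.75 in OSCE 8 and 5.15 and 5.26 in OSCK. ES arrays were highest, and the second OSE T9 array, at 6.10, overlapped the MEF arrays. The mean of the lines was lower by -1.95 ± 0.16 on the log2 scale (adjusted p = 3.97e-07). Irf7, which drives the amplification of type I interferon production, read 7.50 and 7.61 in ES cells, 6.13 and 5.75 in Actin-GFP MEFs and 5.52 and 5.97 in Pou5f1-GFP MEFs. Among the lines Irf7 read 5.25 and 5.35 in OSE T9, 5.23 and 4.88 in OSE T8, 5.17 and 5.49 in OSCE 13, 5.50 and 5.08 in OSCE 8 and 5.22 and 5.06 in OSCK. All line arrays lay below all MEF arrays and those below the ES arrays, with a change of -2.33 ± 0.15 in the mean of the lines (adjusted p = 2.64e-08).

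Irf1, a transcription factor induced by interferon gamma, did not follow the others. It was measured at 8.50 and 8.65 in ES cells, 7.96 and 8.12 in Actin-GFP MEFs and 7.83 and 7.83 in Pou5f1-GFP MEFs. Among the lines Irf1 read 8.18 and 7.98 in OSE T9, 8.33 and 8.22 in OSE T8, 9.43 and 9.45 in OSCE 13, 9.56 and 9.42 in OSCE 8 and 8.24 and 7.99 in OSCK. The 4 arrays of OSCE 8 and OSCE 13 lay above all others, the ES arrays came next, and the arrays of the other lines and the MEFs lay below these. Relative to ES cells Irf1 was higher by 0.91 ± 0.12 in OSCE 8 (adjusted p = 6.52e-05) and by 0.86 ± 0.12 in OSCE 13 (adjusted p = 0.00015). It was lower by -0.46 ± 0.12 in OSCK, -0.50 ± 0.12 in OSE T9, -0.54 ± 0.12 in Actin-GFP MEFs and -0.75 ± 0.12 in Pou5f1-GFP MEFs, and in OSE T8 the difference of -0.30 ± 0.12 was not called (adjusted p = 0.104). All 4 probes of the gene were higher in both OSCE lines. The dimmest went the other way in OSE T9 (0.072), Pou5f1-GFP MEFs (0.21) and Actin-GFP MEFs (0.53, called higher at a limma adjusted p = 0.0279). It did so in OSE T8 as well, with a mean of 5.16 there and 4.85 in ES cells. The mean over the 5 lines, at 0.10 ± 0.10, was not called (adjusted p = 0.53). Between lines on the same slides, Irf1 was higher by 1.37 ± 0.12 in OSCE 8 than in OSCK (adjusted p = 2.06e-06), and lower than in OSCE 13 by -1.17 ± 0.12 in OSE T8 and -1.36 ± 0.12 in OSE T9.

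**Figure D3:**
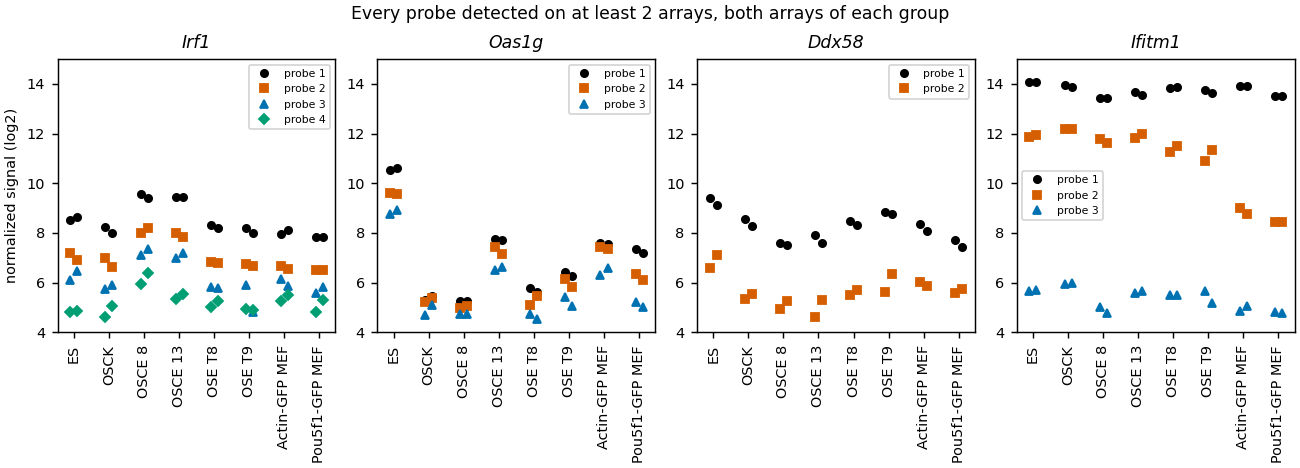
Normalized log2 signal (vertical axis) of each probe above background on at least 2 arrays, for Irf1, Oas1g, Ddx58 and Ifitm1, in the 8 groups (horizontal axis, both arrays of each as points; colour and shape give the probe). All Irf1 probes are high in OSCE 8 and OSCE 13, all Oas1g probes are highest in ES cells with OSCE 13 the highest line, and the probes of Ifitm1 differ in MEFs.

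Of 16 antiviral effectors that act on RNA, 12 were tested, and these 12 were called lower in each of the 5 lines (8.82% to 12.6% of all genes). Oas1b and Oas2 are among them and could only be called lower. Ifit3, of the family that binds foreign RNA, read 10.34 and 10.31 in ES cells, 7.11 and 6.59 in Actin-GFP MEFs and 6.51 and 6.66 in Pou5f1-GFP MEFs. Among the lines Ifit3 read 5.27 and 4.67 in OSE T9, 5.18 and 5.34 in OSE T8, 5.05 and 5.21 in OSCE 13, 4.80 and 4.95 in OSCE 8 and 4.95 and 4.91 in OSCK. All iPS arrays lay below all MEF arrays, and these below the ES arrays. Ifit3 was at least 40.9-fold lower in OSCK, where neither array was above background, and the mean of the lines was lower by -5.29 ± 0.14 (adjusted p = 3.13e-12, 6 of 10 line arrays above background). Ifit2, of the same family, stood at 8.26 and 8.45 in ES cells, 7.74 and 7.52 in Actin-GFP MEFs and 7.63 and 7.57 in Pou5f1-GFP MEFs. Among the lines Ifit2 read 6.56 and 6.31 in OSE T9, 5.79 and 6.43 in OSE T8, 6.17 and 6.24 in OSCE 13, 6.04 and 6.45 in OSCE 8 and 5.95 and 5.76 in OSCK. The order was the same, ES above MEF above line arrays without overlap. The mean of the lines changed by -2.18 ± 0.15 (adjusted p = 4.72e-08), and the MEF types by -0.72 ± 0.19 and -0.76 ± 0.19.

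The oligoadenylate synthetases make short oligoadenylates that activate the nuclease RNase L. Oas1g was measured at 10.55 and 10.61 in ES cells, 7.58 and 7.55 in Actin-GFP MEFs and 7.37 and 7.20 in Pou5f1-GFP MEFs. Among the lines Oas1g read 6.42 and 6.26 in OSE T9, 5.78 and 5.62 in OSE T8, 7.77 and 7.72 in OSCE 13, 5.24 and 5.26 in OSCE 8 and 5.31 and 5.45 in OSCK. The OSCE 13 arrays lay above those of every other line and slightly above the MEF arrays. The change from ES cells was -2.83 ± 0.11 in OSCE 13 (adjusted p = 2.45e-10) and between -4.24 ± 0.11 (OSE T9) and -5.33 ± 0.11 (OSCE 8) in the others. OSE T8 was lower than OSCE 13 by -2.05 ± 0.11 (adjusted p = 2.2e-08) and OSE T9 by -1.41 ± 0.11 (adjusted p = 8.91e-07). By the second Oas1g probe, OSCE 13 read 7.43 and 7.14 and Actin-GFP MEFs 7.42 and 7.36, so these arrays overlapped. Oas1 genes are near-identical copies in a cluster, and their probes may share signal.

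Oas2 read 6.97 and 7.26 in ES cells, 4.88 and 4.70 in Actin-GFP MEFs and 4.34 and 4.30 in Pou5f1-GFP MEFs. Among the lines Oas2 read 4.29 and 4.41 in OSE T9, 4.24 and 4.47 in OSE T8, 4.39 and 4.22 in OSCE 13, 4.23 and 4.29 in OSCE 8 and 4.41 and 4.46 in OSCK. It was above background in ES cells alone, and at least 4.41-fold lower in the mean of the lines (adjusted p = 4.84e-11). Oasl2 gave 6.56 and 6.39 in ES cells, 5.28 and 5.39 in Actin-GFP MEFs and 4.63 and 4.71 in Pou5f1-GFP MEFs. Among the lines Oasl2 read 4.29 and 4.30 in OSE T9, 4.21 and 4.32 in OSE T8, 4.36 and 4.50 in OSCE 13, 4.40 and 4.48 in OSCE 8 and 4.23 and 4.32 in OSCK. Only ES cells and Actin-GFP MEFs were above background on both arrays, and the lines were at least 2.83-fold lower than ES cells (adjusted p = 1.55e-10). Oasl1, in mouse an inhibitor of Irf7 translation, was at 6.24 and 6.69 in ES cells, 5.60 and 4.74 in Actin-GFP MEFs and 4.60 and 4.37 in Pou5f1-GFP MEFs. Among the lines Oasl1 read 4.25 and 4.31 in OSE T9, 4.30 and 4.34 in OSE T8, 4.23 and 4.30 in OSCE 13, 4.21 and 4.25 in OSCE 8 and 4.42 and 4.34 in OSCK. Besides ES cells, 1 Actin-GFP MEF array was above background, and the lines were at least 2.82-fold lower than ES cells (adjusted p = 1.6e-07).

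Mx2, a dynamin-like GTPase that restricts viruses in the cytoplasm of mouse cells, had 7.37 and 7.49 in ES cells, 6.07 and 5.70 in Actin-GFP MEFs and 4.67 and 4.84 in Pou5f1-GFP MEFs. Among the lines Mx2 read 4.51 and 4.38 in OSE T9, 4.29 and 4.38 in OSE T8, 4.31 and 4.28 in OSCE 13, 4.48 and 4.42 in OSCE 8 and 4.38 and 4.35 in OSCK. It was above background in ES cells and Actin-GFP MEFs and in no iPS or Pou5f1-GFP MEF array. The lines were at least 5.49-fold and Pou5f1-GFP MEFs at least 5.76-fold lower than ES cells. Rsad2, which encodes viperin, an enzyme that makes a chain-terminating nucleotide, read 8.71 and 8.98 in ES cells, 7.54 and 6.88 in Actin-GFP MEFs and 6.16 and 6.18 in Pou5f1-GFP MEFs. Among the lines Rsad2 read 4.57 and 4.63 in OSE T9, 4.82 and 4.60 in OSE T8, 5.32 and 5.62 in OSCE 13, 5.60 and 5.45 in OSCE 8 and 4.54 and 4.44 in OSCK. Among the lines it was above background in OSCE 8 and OSCE 13 alone. The change was -3.32 ± 0.18 in OSCE 8 and -3.38 ± 0.18 in OSCE 13, and OSCK, OSE T8 and OSE T9 were at least 14.7-, 14.4- and 14.8-fold lower than ES cells.

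Eif2ak2 encodes PKR, the kinase that stops translation on double-stranded RNA, and read 10.43 and 10.48 in ES cells, 10.25 and 10.16 in Actin-GFP MEFs and 8.99 and 9.03 in Pou5f1-GFP MEFs. Among the lines Eif2ak2 read 9.53 and 9.49 in OSE T9, 8.96 and 9.19 in OSE T8, 8.96 and 8.81 in OSCE 13, 8.83 and 9.01 in OSCE 8 and 8.85 and 8.75 in OSCK. The Actin-GFP MEF arrays came close to the ES arrays, and the Pou5f1-GFP MEF arrays lay with the lines. PKR message was lower by -1.42 ± 0.09 in the mean of the lines (limma adjusted p = 2.4e-08). With lines as replicates the standard error was 0.41 and Eif2ak2 was not called. Actin-GFP MEFs differed from ES cells by -0.25 ± 0.12 (limma adjusted p = 0.0752). Adar, which edits adenosine to inosine in double-stranded RNA, was at 8.38 and 8.51 in ES cells, 7.74 and 7.65 in Actin-GFP MEFs and 7.72 and 7.72 in Pou5f1-GFP MEFs. Among the lines Adar read 7.57 and 8.16 in OSE T9, 7.30 and 7.24 in OSE T8, 7.41 and 7.37 in OSCE 13, 7.90 and 7.96 in OSCE 8 and 7.13 and 7.34 in OSCK. ES arrays were highest, and the lines and MEFs overlapped. By the second Adar probe ES arrays were highest too, but Pou5f1-GFP MEFs, at 5.70 and 5.67, lay below all line arrays (lowest 6.29, in OSE T9). The other tested effectors, Isg20 (an exonuclease) and Oas1b, were dim in every group: their ES levels were 5.31 to 5.65, and Oas1b was above background in ES cells alone.

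**Figure D4:**
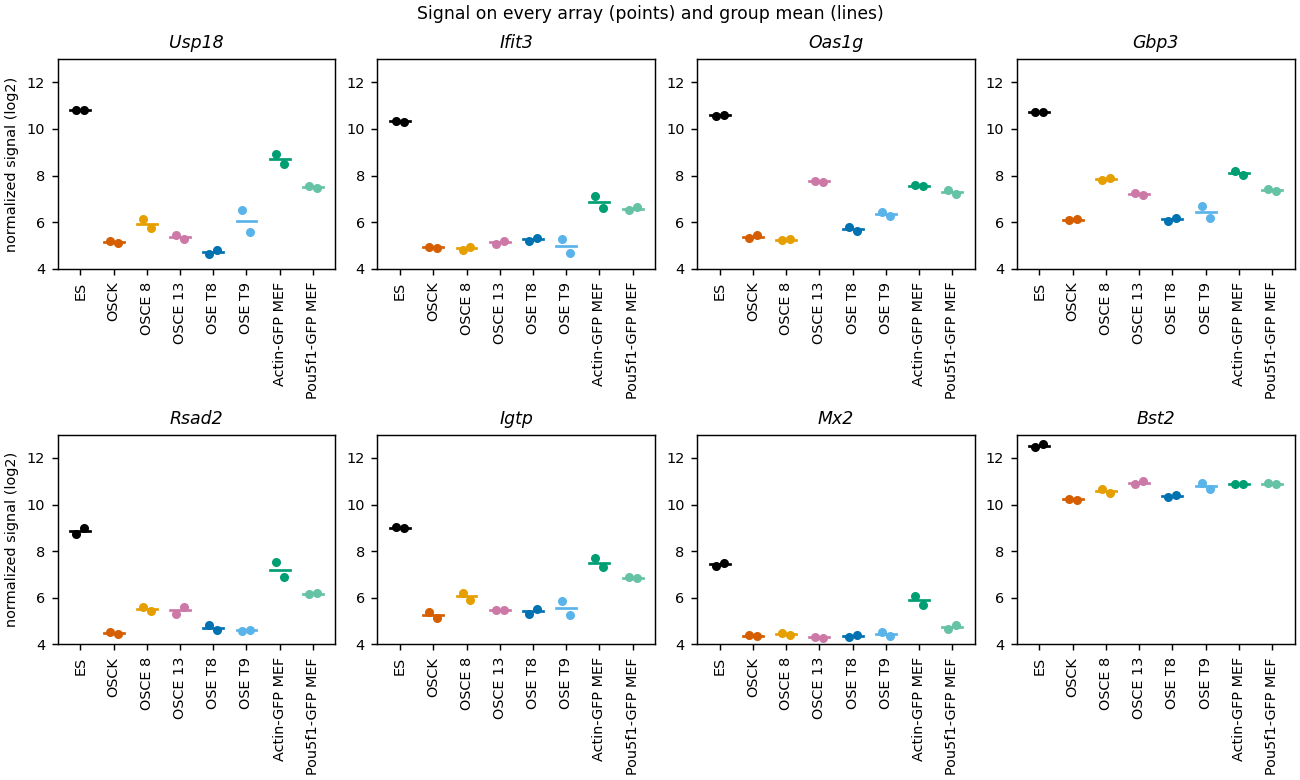
Normalized log2 signal (vertical axis) of 8 genes in the 8 groups (horizontal axis): points are arrays, short lines the mean of the 2. ES cells are highest in every panel; OSCE 13 is the highest line for Oas1g and OSCE 8 for Gbp3.

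At the membrane, Bst2, which encodes tetherin and holds budding virions on the cell surface, was measured at 12.46 and 12.58 in ES cells, 10.90 and 10.88 in Actin-GFP MEFs and 10.91 and 10.89 in Pou5f1-GFP MEFs. Among the lines Bst2 read 10.95 and 10.68 in OSE T9, 10.31 and 10.41 in OSE T8, 10.89 and 10.99 in OSCE 13, 10.66 and 10.49 in OSCE 8 and 10.24 and 10.20 in OSCK. ES arrays were the highest by over 1 log2 unit, and lines and MEFs overlapped; the change was -1.94 ± 0.09 in the mean of the lines (adjusted p = 7.59e-10) and -1.63 ± 0.12 and -1.62 ± 0.12 in the MEF types. Lgals3bp, a secreted galectin-binding glycoprotein, read 9.81 and 9.94 in ES cells, 9.62 and 9.51 in Actin-GFP MEFs and 8.64 and 8.74 in Pou5f1-GFP MEFs. Among the lines Lgals3bp read 9.12 and 9.06 in OSE T9, 8.08 and 8.37 in OSE T8, 8.94 and 8.74 in OSCE 13, 8.06 and 7.86 in OSCE 8 and 8.36 and 8.45 in OSCK. The lines were spread over more than 1 log2 unit, OSCE 8 lowest and OSE T9 highest. Ifitm1 and Ifitm3, which block viral entry, changed less: in the mean of the lines Ifitm1 was lower by -0.36 ± 0.08 and Ifitm3 by -0.48 ± 0.10. The Ifitm1 probes disagreed in MEFs, the brightest differing from ES cells by -0.15 in Actin-GFP MEFs (not called) and the second by -3.02 (called). They also disagreed in OSCK, where the brightest was lower than in ES cells and not called. The second read 12.17 and 12.20 in OSCK against 11.87 and 11.95 in ES cells. For the third the values were 5.93 and 5.99 against 5.68 and 5.71.

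Of the interferon-induced GTPases, which take part in defence against intracellular pathogens, Gbp3 stood at 10.74 and 10.74 in ES cells, 8.18 and 8.04 in Actin-GFP MEFs and 7.40 and 7.35 in Pou5f1-GFP MEFs. Among the lines Gbp3 read 6.70 and 6.18 in OSE T9, 6.05 and 6.19 in OSE T8, 7.23 and 7.17 in OSCE 13, 7.83 and 7.89 in OSCE 8 and 6.10 and 6.12 in OSCK. OSCE 8 was the highest line, between the arrays of the MEF types, and OSCE 13 the next. Gbp3 was lower than in ES cells by -4.63 ± 0.14 in OSCK and -4.62 ± 0.14 in OSE T8, but by -2.88 ± 0.14 in OSCE 8; OSCE 8 exceeded OSCK by 1.75 ± 0.14 (adjusted p = 6e-07). Igtp, also called Irgm3, gave 9.02 and 8.97 in ES cells, 7.72 and 7.30 in Actin-GFP MEFs and 6.89 and 6.84 in Pou5f1-GFP MEFs. Among the lines Igtp read 5.84 and 5.27 in OSE T9, 5.31 and 5.51 in OSE T8, 5.47 and 5.46 in OSCE 13, 6.21 and 5.91 in OSCE 8 and 5.40 and 5.14 in OSCK. All MEF arrays lay above all line arrays and below the ES arrays, and the mean of the lines changed by -3.45 ± 0.14 (adjusted p = 1.91e-10). Gbp2 and Iigp1 were near background everywhere, with ES levels of 4.84 to 5.07; Gbp2 was called lower in OSCK alone (at least 1.03-fold, adjusted p = 0.047). Iigp1 was called in 0 of 7 groups (smallest limma adjusted p = 0.277).

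Usp18, the protease that removes ISG15 from proteins and damps receptor signalling, had the largest change in the mean of the lines. It read 10.82 and 10.80 in ES cells, 8.94 and 8.50 in Actin-GFP MEFs and 7.55 and 7.46 in Pou5f1-GFP MEFs. Among the lines Usp18 read 6.53 and 5.58 in OSE T9, 4.64 and 4.82 in OSE T8, 5.43 and 5.27 in OSCE 13, 6.14 and 5.74 in OSCE 8 and 5.18 and 5.10 in OSCK. Line arrays lay below all MEF arrays and these below the ES arrays. The change was -5.37 ± 0.18 in the mean of the lines (adjusted p = 2.19e-11), and with lines as replicates the same difference had a standard error of 0.56 and an adjusted p of 0.00534. OSE T8, above background on neither array, was at least 56.0-fold lower than ES cells. Trim25, a ubiquitin ligase linked to RIG-I signalling, moved by less than 1 log2 unit in every group (-0.24 to -0.89), and was called in OSCE 8, OSE T9 and both MEF types.

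The ADP-ribosyltransferase genes Parp9 and Parp14 were lower in all 7 groups than in ES cells. Parp14 read 7.64 and 7.78 in ES cells, 6.43 and 6.52 in Actin-GFP MEFs and 5.63 and 5.63 in Pou5f1-GFP MEFs. Among the lines Parp14 read 5.55 and 4.94 in OSE T9, 5.25 and 5.63 in OSE T8, 5.76 and 5.90 in OSCE 13, 5.70 and 5.80 in OSCE 8 and 5.42 and 5.49 in OSCK. ES arrays were highest, Actin-GFP MEFs next, and Pou5f1-GFP MEFs lay among the lines; the change in the mean of the lines was -2.16 ± 0.13 (adjusted p = 1.81e-08). The members with other roles, Ifi35, Ifi44 and the DNA-binding Ifi203, were also lower in all 7 groups, by -0.79 ± 0.11 (Ifi44) to -1.78 ± 0.15 (Ifi35) in the mean of the lines.

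Split by promoter letters, the 12 tested members with a response-element match, such as Ifit3, Oas1g, Gbp3 and Rsad2 above, had a median change of -1.94 in the mean of the lines (range -5.29 to -0.37). The 13 tested members with a window and no match, Irf7 among them, had a median of -1.37 (range -2.33 to 0.10). These are descriptions without a test; the ranges overlap, and Usp18, Mx2 and Oas2 had no window.

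The rest of the pathway, from lists of genes that are no members, is given by step. The interferon genes themselves gave no measurement: 11 of 12 listed had a row, with 17 probes, and 2 of 272 pairs of probe and array were above background, so that none was tested. Of the receptor kinases, Jak1 was higher by 0.45 ± 0.09 in the mean of the lines than in ES cells (limma adjusted p = 0.00227).

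In the mean of the lines against ES cells, 11.2% of all genes were lower and 10.8% higher. Genes that induce interferon (12 tested) had 0 higher and 4 lower, Irf5, Myd88, Ikbke and Cgas. The inhibitors of the pathway (10 tested) had 0 higher and 2 lower, Tnfaip3 (-1.57 ± 0.11) and Irf2 (-0.51 ± 0.09). Further interferon-induced genes moved as the members did: of 29 tested, 27 were lower and 0 higher, with a median of -1.50. Among these the chemokine Ccl5 changed by -5.21 ± 0.10 (above background on 2 of 10 line arrays, both of OSE T9) and Cxcl10 was at least 9.03-fold lower. Cxcl10, counted in the 27, was above background in ES cells alone, so it could only be called lower. Psmb8, a subunit of the immunoproteasome, stood at 9.69 ± 0.22 (SD, n = 2) in OSCE 8 and 9.49 ± 0.037 in ES cells, with means of 7.12 to 7.89 in the other 4 lines.

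The lines differed from each other, in both directions except between OSE T8 and OSE T9. OSCE 8 had 9 members higher and 5 lower than OSCK (8.57% and 8.84% of all genes), Gbp3 and Irf1 by the most, and Ddx58 lower by the most (-0.87 ± 0.16). Leaving out any 1 of these 4 arrays gave 7 to 9 calls in place of 14. Against OSCE 13, OSE T8 had 7 lower and 2 higher (8.86% and 8.59%), and OSE T9 had 5 lower and 7 higher (9.14% and 10.5%), a total of 12 that became 7 without either the first or the second OSCE 13 array. In both, Oas1g, Irf1, Gbp3 and Rsad2 were lower and Ddx58 and Ifitm3 higher; the comparisons share the OSCE 13 arrays. OSE T8 had 6 members lower and 0 higher than OSE T9 (7.09% and 5.4%; 1 higher, Trim25, at an unadjusted limma p under 0.05), and 3 calls without the first OSE T8 array. Usp18 was at least 2.08-fold lower in OSE T8 than in OSE T9 (adjusted p = 0.00178). Other markers moved too: macrophage markers summed to 2059 to 2060 in OSCE 8, 1086 to 1088 in OSCK, 979 to 1024 in OSCE 13, 506 in both OSE T8 arrays and 930 to 974 in OSE T9, and pluripotency markers were lowest in OSCE 8. Of the 15 fibroblast markers, 0 were higher and 4 lower in OSCE 8 than in OSCK, 4 higher and 2 lower in OSE T8 than in OSCE 13, 6 higher and 1 lower in OSE T9 than in OSCE 13, and 2 higher and 3 lower in OSE T8 than in OSE T9. Their part in the result was not tested.

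The MEF types were compared with ES cells and with each other. In Actin-GFP MEFs 25 of the 33 members were lower than in ES cells and 0 higher (28% and 28.3% of all genes), with a median difference of -0.90. In Pou5f1-GFP MEFs 31 were lower and 0 higher (28.8% and 28.7%), with a median of -1.45. At an unadjusted limma p under 0.05, 0 were higher in either. Limited to the 28 members above background on at least 2 arrays outside ES cells, 22 were lower in Actin-GFP and 28 in Pou5f1-GFP MEFs. Ifit3 had the largest difference in both, -3.47 ± 0.19 and -3.74 ± 0.19. Within slides the medians were -0.74 and -1.05 for Actin-GFP MEFs and -1.45 and -1.43 for Pou5f1-GFP MEFs. The mean of the 5 lines was lower than that of the MEFs for 23 members and higher for 3, Irf1, Trim25 and Ddx58 (35% of all genes in each direction), with Usp18 at -2.67 ± 0.14 and a median of -0.53. The second Ddx58 probe went the other way, at -0.38, and with lines and MEF types as replicates 14 were lower and 0 higher (24.7% and 22.5% of all genes).

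Between the MEF types, 17 members were higher and 0 lower in Actin-GFP MEFs (5.33% and 6.17% of all genes; 19 and 0 at an unadjusted limma p under 0.05), with a median difference of 0.42. The largest were Usp18 (1.22 ± 0.23, adjusted p = 0.00238), Eif2ak2 (1.19 ± 0.12, adjusted p = 5.22e-06), Mx2 (at least 1.97-fold) and Rsad2 (1.04 ± 0.18, adjusted p = 0.00107). The number of calls fell to 9 without the first Actin-GFP MEF array, and to 10 and 11 without the first and second Pou5f1-GFP MEF array. Oas2 was among the 17, though above background on none of the 4 arrays. Ifit3 differed by 0.27 ± 0.19 (limma adjusted p = 0.49) and Oas1g, by its brightest probe, by 0.28 ± 0.11 (limma adjusted p = 0.15), neither called. The other Oas1g probes above background differed more. By the second, the means were 7.39 in Actin-GFP and 6.21 in Pou5f1-GFP MEFs, and by the third 6.43 and 5.11.

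Macrophage markers moved in the same comparison. Of the 11 measured, 10 were higher in Actin-GFP MEFs and 0 lower, and their summed signal was 9434 to 9599 there, 2303 to 2349 in Pou5f1-GFP MEFs and 838 to 865 in ES cells. Lyz2, the lysozyme gene of myeloid cells, was higher by 2.49 ± 0.16 and the receptor gene Csf1r by 2.19 ± 0.17; all 11 were above background on both Actin-GFP MEF arrays, and Fcgr1 was not on any Pou5f1-GFP MEF array. Their part in the difference between the MEF types was not tested. Among the further interferon-induced genes, 12 of 29 were higher and 1 lower (Parp12) in Actin-GFP MEFs.

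**Figure D5:**
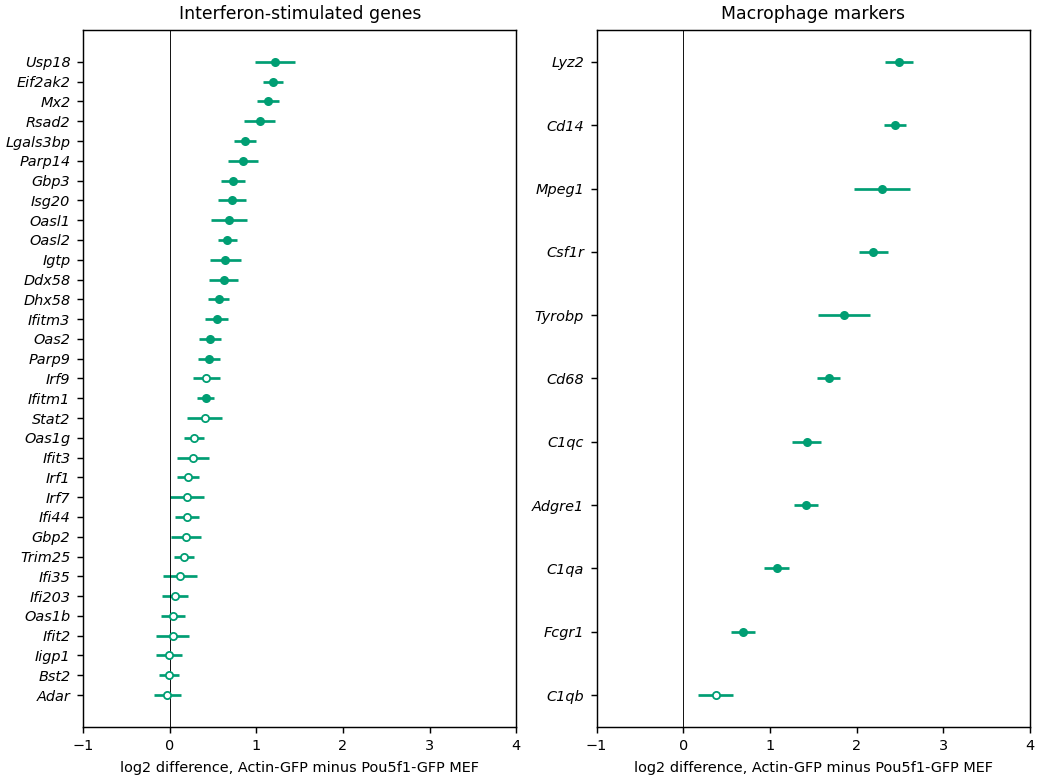
Log2 difference between Actin-GFP and Pou5f1-GFP MEFs (horizontal axis, point and standard error; filled where called) for the 33 interferon-stimulated genes (left) and 11 macrophage markers (right). The 17 called genes on the left lie between 0.41 and 1.22, and 10 of the 11 markers are called.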

How the data were processed

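Signal was measured in total RNA (500 ng labelled per array) of 8 groups, 2 arrays each. The deposited raw table holds linear signal intensity per probe, exported by the authors from BeadStudio 3.2.6 without normalization, per the file headers. A deposited detection score, a fraction that was read as 1 minus a p-value of detection, and a bead number per probe (another unit, 5 at the least) come with it. The series matrix was not used here, because its probe names are not those of the raw table.

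In limma 3.58.1 under R 4.3.3 the intensity was background-corrected (normal-exponential model, offset 16, by detection p), quantile normalized and put on log2. Names of the table were matched to RefSeq symbols (16079 of 34325) or unique synonyms (6654). The fit had 1 mean per group over 16 arrays, with 8 residual degrees of freedom, 14 contrasts and moderated t-statistics, and was tested on simulated data. The number of arrays limits the precision, and p-values measure the spread between arrays.

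The members, pathway lists and markers were chosen with earlier results of these data known. Values on every array are given for members called in at least 4 lines with at least 4-fold in 1, and for the 4 largest changes per contrast; up to 4 genes are named per pathway list. Genes named outside these are singled out after their values were seen. Alternatives were other offsets, scalings, filters and probe rules, replicate and slide blocks, lines as replicates and each array left out. The list of receptors and kinases is not reported here in full.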

Additional observations from a re-analysis of the deposited data

Results flagged for a closer look

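Some results differed between lines that had been compared with the same ES arrays, by a limma test of the difference itself. Irf1 was higher by 1.37 on the log2 scale in OSCE 8 than in OSCK, and differed by -1.36 in OSE T9 from OSCE 13. Oas1g differed by -2.05 in OSE T8 from OSCE 13. The number of members called in either direction was 14 for OSCE 8 against OSCK, 9 for OSE T8 against OSCE 13, 12 for OSE T9 against OSCE 13 and 6 for OSE T8 against OSE T9. Between Actin-GFP and Pou5f1-GFP MEFs it was 17 (6.17% of all genes lower and 5.33% higher). For the line pairs, 8.84%, 8.86%, 9.14% and 7.09% of all genes were lower, in the same order. Those higher were 8.57%, 8.59%, 10.5% and 5.4%. Groups of 2 arrays are too small for a check of single outlying arrays.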

How the results depend on the processing

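The counts of members lower than in ES cells kept within 1.5 times of the values above under every alternative run for each line and MEF type. Without 1 array they ranged from 27 to 29 for OSCK, from 25 to 29 for OSE T9, from 24 to 25 for Actin-GFP MEFs and from 27 to 31 for the mean of the lines. By the array names replicate 1 lay on slides 1 and 2 and replicate 2 on slides 3 and 4, so a number goes with a slide. Same-numbered arrays deviated with a correlation over 0.1 in 27 of 28 group pairs (lowest 0.0985, highest 0.431), so the rule for pairs was missed by 1 pair. The replicate block gave 31 lower members for OSCK and for the mean of the lines, 30 for OSE T9, 26 and 32 for Actin-GFP and Pou5f1-GFP MEFs, 10 calls for OSE T8 against OSCE 13, 8 for OSE T8 against OSE T9 and 17 between the MEF types, and it moved no count by over 1.5 times. The slide block gave 31 lower in OSCK and 31 in OSCE 8. With lines as replicates the mean of the lines had 18 lower members against ES cells, and 14 lower and 0 higher against MEFs. The count of members higher in the lines than in MEFs, 3, became 1 with median scaling, 5 with the mean of all probes and 6 with every probe, and every probe gave 1 higher (an Irf1 probe) in Actin-GFP MEFs and in the mean of the lines against ES cells. Between lines, median scaling gave 9 calls for OSCE 8 against OSCK, 7 for OSE T9 against OSCE 13 and 3 for OSE T8 against OSE T9, and no filter gave 7 for OSE T9 against OSCE 13. Without 1 array these counts ranged from 7 to 9, from 7 to 11 and from 3 to 7, and from 9 to 13 between the MEF types. Directions that turned did so between probes of a gene: Ifitm1 in OSCE 13 against ES cells (0.0047), Irf1 in OSE T9 (0.072), Actin-GFP MEFs (0.53) and Pou5f1-GFP MEFs (0.21) against ES cells, Parp9 and Adar in OSCE 8 against OSCK (-0.062 and -0.109), Parp9 in OSE T8 against OSCE 13 (0.078), Adar in OSE T8 against OSE T9 (0.32), and Ddx58 in the lines against MEFs (-0.38, and -0.078 for the mean of its probes). Irf1 in OSE T8 against ES cells, not called by the brightest probe, also turned by the dimmest. The cause was not tested. Signal over background limits Oas1b, Oas2, Gbp2, Iigp1, Isg20 and Ifi44, and 1 ES line limits every comparison with ES cells.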
